A study of Mus musculus with 10 samples.

Results

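The junction probes marked C1:C2 of a mouse splicing array were examined across 10 tissues. They were all probes whose identifier joins the C1 and the C2 exon of the same event, which gave 3126 of the 21882 probes, 1 for each of 3126 alternative splicing events. Each sample was total RNA pooled from mice of the outbred CD1 strain, and the groups were testis, brain, spleen, liver, kidney, lung, salivary, intestine, heart and muscle, with 1 sample per tissue and no treatment or genotype named. The number of pooled animals and their age and sex are not given here. With 1 sample per tissue there was no spread between replicates, so no difference below was tested and every value describes these 10 arrays. No deposited identifier is paired with a gene, so events are named by number and the tissue labels were not checked against marker genes.

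In a cassette exon event, an alternative exon (A) lies between a pair of flanking exons (C1 and C2). When the spliceosome includes the alternative exon it makes the junctions C1:A and A:C2, and when it skips the exon it joins C1 directly to C2. A C1:C2 probe is therefore the only exon or junction probe of the event whose full target sequence is made by skipping, whereas probes in the bodies of C1 and C2 detect the skipped and the included transcript alike. Tissues such as brain, muscle and testis are known for extensive regulation of cassette exons. The seventh probe of each event is marked INT. What it measures is not stated in the sources used here, and it was the dimmest kind on these arrays.

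Values are those the authors deposited, on a compressed, log-like scale of unstated base that ran from 0 to 8.66, and differences are given in units of that scale. Array medians lay between 2.04 and 2.19. Over all arrays the median of the C1:C2 probes was 2.07, close to C1:A at 2.10 and A:C2 at 2.08, and it lay between the INT probes at 1.21 and the flanking exon bodies at 2.53 for C1 and 2.64 for C2. From 11 C1:C2 probes in kidney to 94 in salivary were listed at exactly 0. Probes differ in sequence and so in brightness, and a level of C1:C2 beside a level of another probe is not a ratio of transcripts.

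Skipping signal was called present where a C1:C2 probe exceeded the 95th percentile of the INT probes on the same array, here called the threshold. By construction about 5.02% of INT probes exceed it. In liver 28.0% of C1:C2 probes were above it (876 probes), against 35.4% of all exon and junction probes on that array. The share was 26.6% in heart against 32.5% of exon and junction probes, and 24.5% in kidney against 32.6%. A middle group held testis with 21.4% of C1:C2 probes against 28.1%, brain with 20.5% against 28.1%, and intestine with 20.1% against 25.5%. The lowest shares were 16.3% in muscle against 19.7%, 14.7% in spleen against 19.2%, 14.2% in lung against 18.4% and 11.1% in salivary against 13.5% (347 probes). Thus in each of the 10 columns skipping junctions passed the threshold less often than exon and junction probes as a whole, and more often than INT probes. That whole includes the brighter exon bodies, and the inclusion junctions were closer, with 30.5% for C1:A and 31.1% for A:C2 in liver. The share for C1:C2 was below that for C1:A in each tissue. It was below that for A:C2 except in lung (14.2% against 13.6%) and salivary (11.1% against 10.4%).

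The ranking of the tissues went with the height of the threshold. The 95th percentile of the INT probes was lowest in liver, at 2.80, and highest in salivary, at 3.40, and over the 10 arrays it correlated with the share of C1:C2 probes above it at Pearson's r = -0.99 (Spearman's rho -0.99). These points share the INT probes by definition. After quantile normalization of the arrays and with 1 threshold for all, the shares lay closer together, from 16.7% in kidney to 19.9% in heart and in muscle, and liver stood at 17.9%. With the columns as deposited and 1 threshold for all, the shares ran from 15.8% in salivary to 20.8% in heart and in testis, with 20.5% in liver. Quantile normalization with a threshold per array left the 10 shares as they were, by construction, since it keeps the order of probes on an array. The order of tissues by skipping signal therefore changed with the choice between a threshold per array and a common one. The share for C1:C2 divided by the mean share for C1 and C2 was more even, from 0.542 in brain to 0.675 in muscle.

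Skipping signal followed the signal of the flanking exons. When the events of each tissue were sorted by the mean of C1 and C2 into 5 bins of equal size, the share of C1:C2 probes above the threshold had a median over tissues of 4.72% in the dimmest bin. It was 6.48% in the second, 10.7% in the third and 21.0% in the fourth, and reached 55.1% in the brightest, where tissues ran from 28.9% to 75.6%. The inclusion junctions climbed in the same way, to 58.6% for C1:A and 59.7% for A:C2 in the brightest bin. INT probes moved far less, from 3.52% to 6.79%. In the brightest bin skipping junctions thus passed the threshold nearly as often as inclusion junctions did.

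The same dependence was seen when flanks were called present or absent. Over all 31260 combinations of event and tissue, C1:C2 was above the threshold in 54.2% of the 6889 in which both flanking bodies were above it. It was above in 14.6% of the 2794 with C1 alone, in 19.6% of the 3689 with C2 alone, and in 7.31% of the 17888 with neither. For comparison, INT probes were above in 6.90% of combinations with both flanks above and in 4.22% with neither. Among events with both flanks above, the share with skipping signal was 61.3% in liver, 58.2% in heart, 57.9% in testis, 55.8% in kidney, 54.7% in intestine, 53.3% in muscle, 47.8% in brain, 47.8% in lung, 43.9% in spleen and 42.4% in salivary. The number of such events behind these shares ran from 255 in salivary to 1070 in liver.

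Not all skipping signal came with bright flanks. Of the 6173 calls of C1:C2 above the threshold, 60.5% had both flanks above, 6.61% C1 alone, 11.7% C2 alone and 21.2% neither. The part with neither flank ranged from 10.7% of calls in liver and 12.8% in kidney to 34.7% in spleen and 44.1% in salivary. The number of events with neither flank above differed too, from 1413 in liver to 2292 in salivary. Within these events C1:C2 was above the threshold about equally often in liver (6.65%) and salivary (6.68%). Over the 10 tissues this share ran from 6.17% in lung to 9.85% in heart. Where both flanks were above the threshold, C1:C2 was dimmer than their mean by a median of 0.65 units in lung to 0.98 units in testis. In 6.39% of such events in kidney to 9.38% in muscle it was brighter than either flank. These events were selected on C1 and C2 and not on C1:C2, which by itself favours a dimmer C1:C2. Over all events the medians of C1:C2 and of the flank mean were 2.06 and 2.59 in lung and 2.03 and 2.55 in testis.

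Inclusion and skipping signal were then set side by side within the events whose flanks were both above the threshold. Inclusion was called where the inclusion junctions, averaged, exceeded the threshold. Over the 6889 combinations, both kinds of junction were present in 33.4%, inclusion alone in 25.2%, skipping alone in 20.8% and neither in 20.6%. Skipping alone was most frequent in lung, at 25.1%, and least in spleen, at 17.1%, a narrow range. Liver had the largest part with both kinds, 39.9%, and lung the smallest, 22.7%. Joint presence of both junctions was the most frequent class when the tissues were pooled, but neither was more frequent in lung (30.2% against 22.7%), salivary (34.5% against 22.7%) and spleen (28.3% against 26.7%). With the 99th percentile as the threshold, inclusion alone, at 29.0%, exceeded both, at 27.8%. The classes do not say in what proportion the transcripts were made.

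Breadth was counted as the number of tissues in which a C1:C2 probe was above the threshold. Of the 3126 probes, 1409 (45.1%) were above it in no tissue, against 35.7% of all exon and junction probes. A further 537 (17.2%) were above it in 1 tissue only, close to the 17.6% of all exon and junction probes, and 1069 (34.2%) in 2 to 9 tissues. In all 10 tissues 111 probes (3.55%) were above it, against 4.8% of exon and junction probes. Flanking bodies were broader, with 215 C1 and 199 C2 probes above in all 10, whereas the inclusion junctions resembled the skipping junction, with 128 for C1:A and 109 for A:C2. For the INT probes the number was 36. Without muscle and spleen, the pair whose INT probes overlapped most, the counts over the remaining 8 tissues stayed within 1.5 times of these.

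The breadth of the skipping signal increased with the breadth of its flanks. Events whose flanks were both above the threshold in no tissue (1067) had C1:C2 above it in 0.963 tissues on average. The mean was 1.33 tissues for events with both flanks above in 1 tissue, 3.75 for those in 5, and 6.29 for the 70 events with both flanks above in all 10. Breadth of skipping therefore stayed below that of the flanks from 2 tissues upward, and among the 70 events with the broadest flanks C1:C2 was above in all 10 tissues in 22, in 1 to 9 in 42 and in none in 6. Conversely, of the 111 broadest C1:C2 probes 47 had both flanks above in 5 or more tissues, and 28 had both flanks above in no tissue. In those 28 events C1:A was above in all 10 tissues 14 times, A:C2 0 times and the INT probe 1 time.

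Skipping signal present in a single tissue was spread over the tissues much like that of exon and junction probes as a whole. Testis held 137 of the 537 such probes, which was 4.38% of all C1:C2 probes against 4.79% of all exon and junction probes above in testis only. Brain held 100 (3.20% against 3.85%), liver 84 (2.69% against 2.53%) and heart 80 (2.56% against 1.96%). Intestine had 43 (1.38% against 1.24%), kidney 37 (1.18% against 1.27%) and spleen 21 (0.672% against 0.901%). The fewest were in muscle with 14 (0.448% against 0.331%), lung with 11 (0.352% against 0.368%) and salivary with 10 (0.320% against 0.315%). As a part of the probes above the threshold in that tissue this was 20.4% in testis and 15.6% in brain, but 2.48% in lung. Both flanks were above the threshold in the same tissue in 399 of the 537, and in 221 of these in that tissue alone. In 212 of the 537 the flanks were both above in at least 1 other tissue, where the skipping junction was not. In brain the flanks were restricted like the junction in 57 of 100 and in testis in 74 of 137. This held for fewer in heart, 13 of 80, where 46 had flanks above elsewhere. Liver was similar, with 25 of 84 restricted and 47 with flanks above elsewhere, and kidney had 15 and 18 of 37. These counts depend on the threshold of each array, which was lowest in liver (2.80) and heart (2.86) and highest in salivary (3.40). A probe of like value in all tissues could thus pass in liver or heart alone. Counts per tissue under a common threshold are not given here.

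Tissues shared part of their C1:C2 probes above the threshold. Kidney and liver shared 611 probes, which were 79.8% of those in kidney and 69.7% of those in liver. Lung and salivary shared 258 (58.1% and 74.4%), and muscle and spleen 301 (59.1% and 65.3%). Relative to their union these were the highest of the 45 pairs, at 59.3%, 48.4% and 44.99%, and salivary and testis were lowest at 23.0%. For events with both flanks above, the same measure was 62.1% in kidney and liver, but 33.5% in lung and salivary and 30.7% in muscle and spleen. INT probes above their threshold overlapped by 48.1%, 52.4% and 67.9% in the same pairs, and their part in the overlap of the C1:C2 probes was not tested.

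How far each C1:C2 probe followed its own flanks from tissue to tissue was measured by the correlation, over the 10 tissues, of C1:C2 with the mean of C1 and C2, after each array was centred on its median. The points of 1 event share their arrays and RNA pools, so these values are descriptions with no test. The median over the 3126 events was r = 0.76, with the middle 50% of events between 0.44 and 0.92, and 0.65 by Spearman's rho. In 1415 events (45.3%) r exceeded 0.8, and in 284 (9.09%) it was below 0. INT probes had a median of 0.17 with the same flanks, and 35.8% of them were below 0. The inclusion probes followed the flanks to a like degree, with medians of 0.72 for C1:A, 0.77 for A:C2 and 0.79 for A. The skipping junction was therefore about as close to its flanks as the probes of the included transcript were.

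Neither flank was followed more closely than the other, with medians of 0.72 for C1 and 0.72 for C2. The dimmer of the flanks in each tissue gave 0.76 and the brighter 0.70. In the 541 events whose flanks were both above the threshold in at least 5 tissues the median rose to 0.88, against 0.09 for INT probes. The correlation also depended on how far the flanks moved. In the 782 events with the least change of the flank mean over tissues (up to 1.28 units) the median r was 0.51, and in the 782 with the most (2.60 to 7.88 units) it was 0.92. The median slope was 0.68 units of C1:C2 per unit of flank mean over all events and 0.83 in those 541. For A:C2 the slopes were 0.78 and 0.94. A slope of this kind also shrinks where the correlation is imperfect, so it does not measure how far C1:C2 moved. The median range over tissues was 1.72 units for C1:C2 and 1.85 for the flank mean.

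Across events within a tissue the relation was looser. C1:C2 correlated with the flank mean at r = 0.69 in liver, 0.66 in kidney, 0.64 in testis, 0.62 in heart, 0.58 in intestine, 0.53 in brain, 0.53 in lung, 0.50 in muscle, 0.49 in spleen and 0.48 in salivary. Events are not independent replicates, and probe brightness enters these values. The inclusion junctions gave a similar range, 0.42 to 0.68 for C1:A and 0.43 to 0.69 for A:C2. INT probes gave 0.07 to 0.16.

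The highest tissue of C1:C2 was also the highest tissue of its flank mean in 1758 events (56.2%), against 56.6% for A, 53.1% for C1:A, 55.2% for A:C2 and 17.1% for INT. Where the flanks were highest in testis, in 680 events, C1:C2 was highest in testis in 62.5%. The corresponding part was 59.3% in liver, 57.3% in spleen, 56.5% in muscle, 55.2% in lung, 55.1% in intestine, 53.4% in heart, 51.8% in brain, 50.8% in salivary and 50.2% in kidney. When only events with C1:C2 above the threshold in its highest tissue were kept, the overall share was 66.5%.

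C1:C2 was closer to one inclusion junction than to the other. Across events C1:C2 correlated with C1:A at 0.56 to 0.67 over the 10 tissues and with A:C2 at 0.25 to 0.46, and C1:A was the higher in each tissue. Both inclusion junctions are made by the same transcript, and C1:C2 shares its C1 side with C1:A and its C2 side with A:C2. From tissue to tissue the median r per event was 0.74 with C1:A, 0.61 with A:C2, 0.55 with A and 0.19 with INT. With the flank mean held fixed in a partial correlation over the 10 tissues, the medians were 0.49 for C1:A, 0.21 for A:C2 and 0.09 for A, beside 0.11 for INT. Over all events the value for A was thus no higher than that for INT, and none of these medians was below 0. A partial r below 0 was found in 21.7% of events for C1:A and in 35.6% for A:C2. In the 541 events with both flanks above in at least 5 tissues the order of A and INT differed. The medians there were 0.37 for C1:A, 0.23 for A:C2, 0.07 for A and -0.0059 for INT.

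The difference between the inclusion junctions was widest where the flanks were dim. With neither flank above the threshold, C1:C2 was above it in 49.0% of the 1295 combinations in which C1:A alone of the inclusion junctions was above. This share was 9.65% of the 1016 with A:C2 alone and 3.17% of the 15380 with neither inclusion junction above, and it was 43.7% of the 197 with both above. It ran from 33.0% to 61.0% over tissues for C1:A alone and from 3.23% to 28.0% for A:C2 alone, so the ranges of tissues did not overlap. With both flanks above, the shares were 48.6% for C1:A alone, 22.8% for A:C2 alone 55.4% with neither and 61.9% of the 3302 with both. With both flanks above, the share with C1:A alone was thus lower than with neither inclusion junction. The part of the C1:A signal in the skipping calls was not tested.

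Tissue differences of C1:C2 were called at 4 robust SDs of the deviations of all probes from the median of the other 9 tissues, or 2.11 units. In testis 166 C1:C2 probes (5.31%) were high, against 5.9% of all probes. In liver 92 (2.94%) were high against 3.45%, in brain 72 (2.30%) against 2.94%, and in kidney 52 (1.66%) against 2.25%. Intestine had 43 (1.38%) against 1.62%, salivary 24 (0.768%) against 0.836% and lung 19 (0.608%) against 0.585%. Heart had 51 (1.63%) against 1.46%, muscle 52 (1.66%) against 1.5%, and spleen 50 (1.60%) against 1.49%. Over all tissues 621 calls were high, 1.99% against 2.2% of all probes, and they fell on 506 probes. Of these probes 405 had a single high tissue, 87 had 2 and 14 had 3 or more. C1:C2 probes were therefore called at a share near that of all probes, which include C1:C2 itself and the INT probes. INT probes changed least over tissues, with a median range of 1.17 units, against 1.72 for C1:C2 and 1.76 to 2.07 for the other kinds. A share of calls over exon and junction probes alone was not taken.

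Of the 621 high calls, 310 (49.9%) came with both flanks high in the same tissue, 142 with 1 flank high and 169 (27.2%) with no flank high. In the other direction, both flanks were high in 500 combinations, and C1:C2 was high in 62.0% of these, against 63.4% for C1:A, 66.6% for A:C2 and 64.2% for A. In those 500 the flank mean was higher by a median of 3.02 units and C1:C2 by 2.41. The 500 were picked for high flanks and not for a high C1:C2, which by itself favours the larger value for the flanks. The share ran from 42.1% of 19 in spleen and 47.5% of 59 in brain to 70.7% of 157 in testis and 77.8% of 9 in salivary. The skipping junction thus usually accompanied a transcript that was high in a tissue.

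Counted from the high C1:C2 calls instead, muscle and spleen stood apart from the other tissues. Of the high C1:C2 probes, 34 of 52 in muscle (65.4%) and 35 of 50 in spleen (70.0%) had no high flank, whereas the part was 9.62% to 37.3% in the other 8 tissues. In these 34 and 35 probes the flank mean deviated by medians of -0.17 in muscle and 0.35 in spleen. Their C1:C2 was higher by 2.59 and 2.68. A gap of this kind follows from picking high C1:C2 probes without a high flank. In salivary such probes had medians of -0.04 and 2.79, and in the remaining tissues the flank median was 0.61 to 1.63. Both flanks were above the threshold in only 3 of the 34 in muscle and 9 of the 35 in spleen. The same 26 C1:C2 probes were high in both tissues, out of 52 in muscle and 50 in spleen, and 24 of them had no high flank in either. Among these 24, A:C2 was also high in both tissues in 12, C1:A in 0 and INT in 0. Kidney and liver, the pair with the next largest overlap, shared 19 high C1:C2 probes, of which 1 had no high flank in either. Muscle and spleen are set against largely the same other tissues, so the lists are not independent. Without both tissues the part of high calls with no high flank was 19.3% (100 of 519).

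Low calls were few, 37 over all tissues (0.118%) against 0.149% of all probes. Values stop at 0, and a low call was possible in 47.5% of the C1:C2 combinations, those with a high enough median elsewhere. In 20 combinations, spread over 19 events, all 7 probes of the event were listed at 0 in the tissue, INT included. They lay in salivary (6), heart (4), liver (4), kidney (2), muscle (2), brain (1) and testis (1). Such blocks held 10 of the 37 low C1:C2 calls, so 27 remained without them. A block in which every probe of an event reads 0 gives no information on skipping against inclusion, and what produced it was not tested. Of the 37 low calls, 18 had a low flank, and the median deviation of the flank mean was -1.67. Of the 27 outside such blocks, 10 had a low flank, and the median was -1.56.

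The C1:C2 probe with the highest deviation was that of event Ben742. It read 7.35 in testis, 2.40 in brain, 2.34 in kidney, 2.17 in liver, 1.53 in heart, 0.955 in muscle, 0.637 in lung, 0.605 in spleen, 0.238 in intestine and 0 in salivary. Testis stood apart from all other tissues, which were below the threshold. The deviation in testis was 6.39 units, and the other probes moved with it, C1 by 4.62, C2 by 6.19, A by 6.52, C1:A by 6.28 and A:C2 by 6.49, but INT by 0.40. Skipping and inclusion junctions were thus high together in testis. Over the 10 tissues C1:C2 followed the flank mean at r = 0.97 (rho 0.93).

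Event Ben1757 gave the next highest deviation, in liver. Its C1:C2 probe read 6.32 there, 0.799 in spleen, 0.548 in muscle, 0.399 in lung, 0.368 in kidney, 0.295 in salivary, 0.269 in intestine, 0.177 in brain, 0.153 in heart and 0.0968 in testis. Liver alone was above the threshold, by a deviation of 6.02 units. The flanks did not restrict in the same way: C2 read 4.14 in heart and 3.58 in lung, while C1 read 0.107 and 0 there. C1:A, at 0.695 in heart and 0.127 in lung, went with C1 and with C1:C2, and A:C2, at 4.16 and 3.84, went with C2. The junctions made from C1 were thus bright in liver only. The r of 0.92 with the flank mean came with a rho of 0.10 and with values near the floor in the other 9 tissues, and without liver r was -0.36, so it rests on liver.

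The lowest deviations were both blocks of 0. The C1:C2 probe of event Ben2313 was listed at 0 in heart and read 6.36 in muscle, 5.79 in lung, 4.71 in brain, 4.65 in salivary, 4.34 in intestine, 3.87 in testis, 3.77 in spleen, 3.46 in kidney and 3.33 in liver. All 7 probes of this event were at 0 in heart. In the remaining 9 tissues C1:C2 was above the threshold throughout, while both flanks were above it in brain only. For event Ben4077, C1:C2 was at 0 in kidney and read 4.99 in intestine, 4.41 in heart, 4.16 in testis, 4.16 in lung, 4.09 in salivary, 4.01 in muscle, 3.90 in spleen, 3.76 in brain and 3.27 in liver. All 7 of its probes were at 0 in kidney, and its r with the flank mean was 0.995 over all tissues and 0.967 without kidney.

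The 2 C1:C2 probes with the highest minimum over tissues lay above both of their flanks in each tissue. The gap to the brighter flank was at least 3.75 units for event Ben501 and 2.08 for event Ben500. For event Ben501, C1:C2 read 7.49 in heart, 7.32 in intestine, 7.28 in muscle, 7.23 in kidney, 7.20 in lung, 7.07 in brain, 6.99 in testis, 6.80 in salivary, 6.80 in spleen and 6.72 in liver. The lowest and highest tissue were less than 1 unit apart. Its C1 body lay between 2.17 and 2.97 and its C2 body between 0.815 and 2.61, all below the threshold except C1 in liver, and A:C2 between 2.16 and 2.61. The r of C1:C2 with the flank mean was -0.60 (rho -0.54). The next brightest probe, of event Ben500, read from 6.55 in liver to 7.55 in brain with a median of 7.10. Its C1 body was above the threshold in 6 tissues and its C2 body in none, and C1:A read 3.94 to 5.58.

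Event Ben3133 also had C1:C2 far above its flanks in each tissue. The probe read 6.78 in intestine, 6.69 in brain, 6.41 in lung, 6.37 in kidney, 6.29 in heart, 6.27 in muscle, 6.13 in salivary, 6.03 in spleen, 5.92 in testis and 5.78 in liver, a narrow range. Its C1:A junction read almost the same, from 5.71 to 6.70, whereas A reached at most 1.07 and A:C2 at most 0.558. C1 and C2 stayed between 2.07 and 3.03, and both were above the threshold in no tissue. A junction probe was thus bright without the exon bodies on either side of it. In 113 events (3.61%) C1:C2 was brighter than both flanking bodies in all 10 tissues, against 143 for C1:A, 144 for A:C2 and 39 for INT. Of these 113, C1:A was so too in 52 (46.0%), A:C2 in 14 (12.4%), A in 11 and INT in 7.

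The opposite pattern was bright flanks without skipping signal. For event Ben3845, C1:C2 read 2.63 in kidney, 2.56 in intestine, 2.23 in heart, 1.99 in liver, 1.72 in testis, 1.69 in lung, 1.59 in brain, 1.51 in muscle, 1.475 in salivary and 1.24 in spleen. All 10 values were below the threshold, while C1 read at least 4.29, C2 at least 4.04 and A:C2 at least 4.42. C1:A was dimmer, at 2.93 to 5.13. Although dim, C1:C2 still followed the flank mean at r = 0.79 (rho 0.81). For event Ben3847, C1:C2 read from 1.52 in salivary to 2.99 in spleen with a median of 2.23, again below the threshold throughout, beside C1 at 4.03 or more, C2 at 4.40 or more and both inclusion junctions at 3.54 or more. Its INT probe read higher than its C1:C2 probe in 8 of the 10 tissues, with a median of 2.95. In both events inclusion signal was present in all 10 tissues, with the exception of C1:A of Ben3845 in lung and salivary.

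Among the 22 events with C1:C2 and both flanks above the threshold in all 10 tissues, the median r was 0.96. The closest follower was event Ben2888, with r = 0.998 (rho 0.96). Its C1:C2 probe read 5.97 in testis, 5.55 in liver, 5.48 in kidney, 4.90 in intestine, 4.59 in brain, 4.58 in muscle, 4.57 in spleen, 4.51 in lung, 3.71 in heart and 3.70 in salivary. Testis, liver and kidney were high and heart and salivary low in C1, C2 and A:C2 as well, and r was 0.997 or more with any single tissue left out. In event Ben4076, C1:C2 read 8.07 in kidney, 5.76 in intestine, 5.03 in lung, 4.93 in salivary, 4.92 in spleen, 4.83 in muscle, 4.79 in heart, 4.72 in brain, 4.70 in testis and 4.19 in liver. C1 and C2 read 8.31 and 8.42 in kidney. Its A probe stayed at or below 1.08 and A:C2 at or below 2.36 in all tissues, both below the threshold, whereas C1:A read 2.75 to 3.60 and was above it in 6 of the 10. The r was 0.99 (rho 0.75) and 0.92 without kidney.

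Among the same 22 events the lowest r were those of Ben387 and Ben3147. For event Ben387, C1:C2 read 4.73 in heart, 4.62 in kidney, 4.58 in lung, 4.41 in liver, 4.39 in muscle, 4.35 in salivary, 4.25 in intestine, 4.13 in spleen, 3.94 in brain and 3.94 in testis. The tissues lay less than 1 unit apart, while C1 reached 6.90 in salivary and 6.44 in intestine against 3.56 to 4.36 elsewhere, and C2 did not follow C1 there, at 3.99 and 4.07. The r with the flank mean was -0.06 (rho -0.10), and 0.40 after quantile normalization. Brain and testis, where C1:C2 was lowest, were the tissues with the highest C1:A, at 4.43 and 4.38, and the highest A:C2, at 4.25 and 4.40. In event Ben3147, C1:C2 read from 3.13 in testis to 4.13 in intestine with a median of 3.77, and r was 0.25 (rho 0.31), or 0.61 without testis and 0.04 without intestine. Its inclusion junctions followed the same flanks at 0.92 for C1:A and 0.72 for A:C2.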

How the data were processed

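Per the labels, each of the 10 samples is a pool of total RNA from 1 tissue of CD1 mice, hybridised to an array of exon-body probes and junction probes. The authors deposited 1 table of 21882 probe values for each sample. These values are scores as deposited by the authors, and how they were made from the scanned arrays is not given in the labels. Neither the labels nor the table header gives the base of the scale, the transformation, the background correction or the normalization between arrays, and probe sequences were not used here. Event and probe kind were read from the identifiers. All 3126 C1:C2 probes were kept and no filter on low values was set. No sample column was left unused.

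The threshold was the 95th percentile of the INT probes of each column. For correlations and deviations each column was centred on its median. A deviation was the difference between a tissue and the median over the other 9, called at 4 robust SDs (median absolute deviation times 1.4826, 0.527 units). With 1 sample per tissue, no test between tissues was run. The number of arrays limits the precision. The members, measures and thresholds were chosen with earlier results of these data known.

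Named probes were, over all C1:C2 probes, the 2 with the highest and the 2 with the lowest deviation, the 2 with the highest minimum over tissues, the 2 never above the threshold with the brightest flanks, the 2 with the highest and the 2 with the lowest r with the flanks among those above throughout, and the 2 farthest above their flanks. One event, Ben501, came up under 2 of these. The alternatives were a 99th percentile, each event's own INT probe, quantile normalization, Spearman's rho, subsets of events, tissues left out, the mean as comparator and filters. The calls and correlations were checked on simulated arrays with known answers. The scripts ran under Python 3.11.15 with scipy 1.17.1, pandas 2.3.3 and numpy 2.4.6.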

Additional observations from a re-analysis of the deposited data

How the results depend on the processing

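No paired analysis was possible because the labels give a single array per tissue and nothing was tested. Blocks of 0 were set aside after seeing the data, which left 27 low calls and a median r of 0.76. Low signal is a limit: a probe under the threshold is not shown to be without target, and the cause was not tested for any shift given here, except that a higher or lower threshold and a subset of events change shares by construction. A value counts as moved here when it left its 95% interval, or for counts when it changed by over 1.5 times. Such an interval runs over the probes or events of 1 array and not over samples. Of the alternatives run, 77 values stayed within these limits and 101 moved (10 of the 77, quantile normalization with a threshold per array, keep the order of probes on an array and so could not move), and for the named probes 10 stayed, 5 moved and 1 changed sign.

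With the 99th percentile of INT probes, C1:C2 shares above it were 5.18% in brain, 10.2% in heart, 5.79% in intestine, 8.64% in kidney, 11.2% in liver, 4.13% in lung, 5.41% in muscle, 2.98% in salivary, 3.81% in spleen and 6.17% in testis. Then 2272 probes were above in no tissue and 19 in all. With both flanks above, 48.0% of C1:C2 were above over all tissues (41.9% in brain, 53.0% in heart, 44.4% in intestine, 44.0% in kidney, 51.4% in liver and 49.2% in testis), against 11.1% with C1 alone, 12.5% with C2 alone and 2.19% with neither. Both kinds of junction were present in 27.8%, inclusion alone in 29.0% and neither in 23.1%. C1:C2 minus the flank mean was -1.02 in kidney, -0.98 in liver, -0.58 in muscle and -0.57 in salivary.

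Against the INT probe of its own event, C1:C2 was above in 72.0% in brain, 75.1% in heart, 71.4% in intestine, 72.5% in kidney, 73.3% in liver, 71.8% in lung, 70.8% in muscle, 67.2% in salivary, 69.8% in spleen and 71.4% in testis, with 235 probes in no tissue, 191 in 1 and 1446 in all. With both flanks above their own INT probe the share was 84.9% over all tissues (83.5% in brain, 86.6% in heart, 85.1% in intestine, 83.7% in kidney, 85.8% in liver, 84.6% in lung, 87.1% in muscle, 83.5% in salivary, 85.0% in spleen and 83.9% in testis), 43.6% with C1 alone, 44.9% with C2 alone and 19.2% with neither. Shares thus depended strongly on the threshold. The order of both flanks, 1 flank and neither held under both alternatives. Against the own INT probe, however, C1, C2 and C1:C2 share the same comparator, which by itself favours that order. That setting therefore cannot tell how far C1:C2 followed its flanks.

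With the columns as deposited and 1 threshold for all, chosen after seeing the data, the shares were 20.8% in heart, 20.2% in kidney, 20.5% in liver, 17.3% in lung, 19.1% in muscle, 15.8% in salivary and 17.8% in spleen. After quantile normalization with 1 threshold the shares were 17.3% in brain, 19.9% in heart, 16.7% in kidney, 17.9% in liver, 18.3% in lung, 19.9% in muscle, 19.0% in salivary, 18.7% in spleen and 18.0% in testis, high probes numbered 56 in liver and 30 in lung, and the highest tissue matched in 54.2%. The deviations were 5.75 for Ben742 and 5.22 for Ben1757, and r was 0.99 for Ben2888 and, turned in sign, 0.40 for Ben387. It matched in 66.5% where C1:C2 was above in its highest tissue. Spearman's rho was 0.65 at the median event, 0.60 across events in heart, 0.62 in kidney, 0.64 in liver, 0.48 in muscle and 0.59 in testis, and 0.96 for Ben2888 and 0.75 for Ben4076. The median r was 0.88 with both flanks above in 5 or more tissues, 0.78 without heart and 0.73 without testis. Across events with both flanks above r was 0.41 in brain, 0.60 in heart, 0.49 in intestine, 0.54 in kidney, 0.63 in liver, 0.47 in lung and 0.46 in spleen. With either inclusion junction counted, both kinds were present in 37.1%, inclusion alone in 32.0%, skipping alone in 17.1% and neither in 13.8%. Against the mean of the other 9 tissues, high probes numbered 29 in kidney, 12 in lung, 33 in muscle and 33 in spleen. Low calls numbered 23 when the others had to be above the threshold.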

Other observations

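Neighbouring event numbers gave a contrast in kidney, chosen after the values were seen. Ben4076 and Ben4077 read alike in their flanking bodies outside kidney, with C1 at 4.65 and 4.56 in brain, 5.76 and 5.63 in intestine and 4.09 and 4.20 in liver. In kidney, C1 of Ben4076 read 8.31 and its C1:C2 junction 8.07, the highest values of these probes in any tissue, whereas all 7 probes of Ben4077 were listed at 0. No gene is paired with either event here, and whether they lie in the same transcript was not tested.

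A similar block of 0 was found for event Ben844 in both brain and heart, the only event with 2 such tissues. Its C1:C2 probe had a median of 0.807 over the 9 tissues other than the 1 with the block, as deposited, so this block added no low C1:C2 call. Blocks in salivary held the C1:C2 probes of Ben284 and Ben3510, which had medians of 3.92 and 3.58 in the other 9 tissues and were called low there.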
